A study of Mus musculus with 12 samples.

Results

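A set of 10 genes for secreted signals of inflammation and growth was followed through 12 RNA libraries of mouse embryonic fibroblasts (MEFs) and of such cells early in reprogramming. They comprised the CC chemokine genes Ccl2, Ccl7 and Ccl5, the CXC chemokine genes Cxcl1, Cxcl5, Cxcl10 and Cxcl12, and the cytokine genes Il6, Lif and Csf1. The 10 genes were taken by symbol from the 20325 genes of the deposited tables, and all 10 were found in each library. All cells carried AF10 fl/fl alleles (AF10 is the product of Mllt10, a partner of the histone H3 lysine 79 methyltransferase DOT1L), an OSKM cassette of the reprogramming factors, and rtTA, through which doxycycline switches the cassette on. Cells had received an adenovirus carrying Cre from the CMV promoter (the creAF10 groups, genotype AF10 -/-, called AF10-deleted here) or its empty counterpart (the fl groups). No group without floxed alleles received Cre, so AF10 deletion and exposure to Cre cannot be told apart. Cells were taken as MEFs (groups MEF_fl and MEF_creAF10) or on day 4 of reprogramming, which was started 2 days after the virus with 2 µg/mL doxycycline. Day 4 cells had been kept in DMSO (Day4_fl_DMSO and Day4_creAF10_DMSO) or in 5 µM SGC0946, a DOT1L inhibitor (Day4_fl_SGC and Day4_creAF10_SGC). Each group had 2 libraries. MEFs were in MEF medium, whereas day 4 cells were in embryonic stem cell medium containing leukemia inhibitory factor (LIF) protein, on gelatin with DR4 feeder MEFs. Stage, doxycycline, medium and feeder cells therefore cannot be told apart, nor can feeder RNA and RNA of the reprogramming cells. The time from virus to harvest of the MEFs is not given, so time since the virus may also differ between the stages. Strain and embryo age are not given in the sources used here.

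Chemokines are small secreted proteins that draw leukocytes along a gradient by binding G-protein-coupled receptors. CC chemokines such as CCL2 and CCL7 attract monocytes through CCR2, ELR-motif CXC chemokines such as CXCL1 and CXCL5 attract neutrophils through CXCR2, and CXCL10 is an interferon-induced ligand of CXCR3 on T cells. Fibroblasts make several of these factors when NF-kappaB is activated by interleukin 1, tumour necrosis factor or microbial products, and they make CXCL12 and CSF1 without such a stimulus. IL6 and LIF share the receptor subunit gp130 and signal through STAT3, and LIF sustains mouse pluripotent stem cells.

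The libraries held 14602536 to 22800753 expected counts. CPM is a gene's count relative to the TMM-scaled library total, and TPM is the deposited value scaled for transcript length. Mllt10 RNA, counted over the whole gene, stood at 43.1 to 61.4 CPM in the fl libraries and 34.4 to 44.2 CPM in the AF10-deleted libraries, which was 72.1% to 82.1% of the fl library with the same replicate number, stage and treatment. The sum of 8 fibroblast markers was 47400 to 63300 CPM in MEFs and 20200 to 21800 CPM on day 4, and all 8 passed 1 CPM in each group. A sum of 8 pluripotent cell markers was 6.91 to 11.1 CPM in MEFs and 239 to 304 CPM on day 4, where Zfp42, Esrrb, Dppa5a and Utf1 stayed under 1 CPM. Pou5f1 and Sox2, which are in this sum, are also factors of the OSKM cassette, and RNA from the cassette was not told apart. Replicate numbers marked 2 sources of cells of different sex, since 4 Y-linked genes summed to 4035 to 4780 counts in replicate 1 libraries and 8 to 52 in replicate 2 libraries. Nothing in the labels says how the replicates were obtained, and p-values measure only the spread between these libraries. Changes are log2 fold changes with their SE from edgeR, with p-values adjusted by Benjamini-Hochberg over 13936 genes and called under 0.05. In the first fit each group had a term, and in the second, called the paired fit, the difference between the replicate numbers was also removed within each stage.

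On the per-length scale the 10 genes spanned a wide range of levels and changed their order between the stages. In MEF_fl the TPM was 1170 ± 339 (SD, n = 2) for Cxcl12 and 254 ± 47.1 for Csf1. Below them came Cxcl5 at 93.9 ± 21.6, Ccl7 at 59.1 ± 41.5, Ccl2 at 39.0 ± 30.6, Cxcl10 at 37.6 ± 13.7, Cxcl1 at 33.0 ± 3.82 and Ccl5 at 23.1 ± 1.97 TPM. Lif, at 5.0 ± 3.61 TPM, and Il6, at 0.685 ± 0.0636 TPM, were lowest. From Cxcl5 down to Cxcl1 the ranges of neighbours in this order overlapped. In Day4_fl_DMSO the TPM of Cxcl12 was 429 ± 13.1 and that of Cxcl5 208 ± 14.8, followed by Ccl7 at 152 ± 19.5, Csf1 at 113 ± 22.8, Cxcl1 at 97.4 ± 4.0 and Ccl2 at 91.2 ± 0.629. Lif was at 3.82 ± 0.297, Il6 at 1.54 ± 0.346, Ccl5 at 1.19 ± 0.00707 and Cxcl10 at 0.83 ± 0.113 TPM. Cxcl10, which overlapped Ccl2 and Cxcl1 in MEF_fl, had the lowest mean of the 10 in Day4_fl_DMSO. The values of the low genes rested on few reads: on day 4 Ccl5 had 0 to 7 counts a library and Cxcl10 8 to 18, while Il6 had 3 to 8 counts in MEFs and 14 to 57 on day 4. All 10 genes passed the filter on low counts, Ccl5 only through the 4 MEF libraries and Il6 only through the 8 day 4 libraries. Counts of Ccl2, Ccl7, Cxcl1, Cxcl5, Cxcl12, Lif and Csf1 were fractional in 3 to 12 libraries, as RSEM divides reads that match several places, and are uncertain to that extent. Those of Ccl5, Cxcl10 and Il6 were whole.

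**Figure D1:**
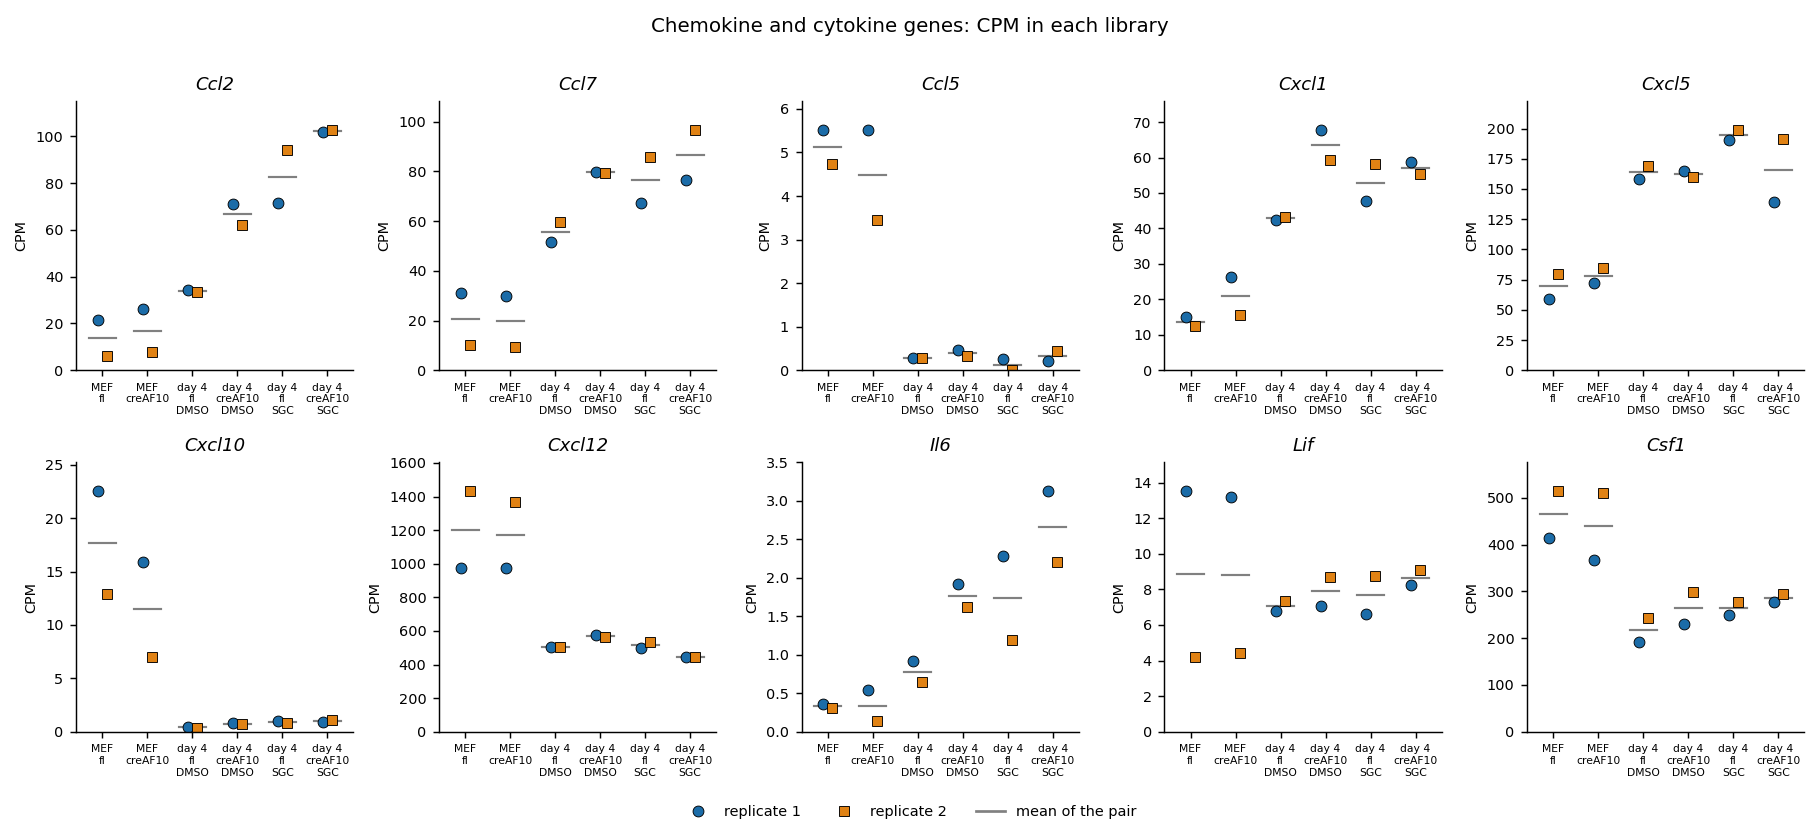
CPM (y axis, linear, from 0) of each of the 10 genes in the 12 libraries, grouped by stage, genotype and treatment (x axis); circles are replicate 1, squares replicate 2 and grey lines the mean of the pair. Ccl2 climbs from 33.3 and 34.1 CPM in Day4_fl_DMSO to 102 and 103 CPM in Day4_creAF10_SGC, while Ccl5 and Cxcl10 are near 0 in the day 4 libraries.

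Promoter sequences are given for 5 genes, 4 that rose in at least 1 comparison on day 4 and Cxcl12, which fell in 1, so that their letters can be set beside the values that follow. They are the 250 bases before the annotated start, from the RefSeq promoter table for GRCm38.p6, which held 6 of the 10 genes. Ccl2, Ccl5, Ccl7 and Cxcl5 were not matched. Lif, the other gene with an entry, was called in no comparison and is not printed. As the 5 genes were picked by their changes in these data, the motifs below are no test of those changes. The windows are chr5:90890995-90891244 on the plus strand for Cxcl1, chr5:30012864-30013113 on the plus strand for Il6 and chr3:107760470-107760719 on the minus strand for Csf1. Those of Cxcl10, chr5:92348890-92349139 on the minus strand, and of Cxcl12, chr6:117168285-117168534 on the plus strand, follow. Each is written 5′ to 3′ on the gene's strand, with matches to the motifs searched in capitals.
Cxcl1: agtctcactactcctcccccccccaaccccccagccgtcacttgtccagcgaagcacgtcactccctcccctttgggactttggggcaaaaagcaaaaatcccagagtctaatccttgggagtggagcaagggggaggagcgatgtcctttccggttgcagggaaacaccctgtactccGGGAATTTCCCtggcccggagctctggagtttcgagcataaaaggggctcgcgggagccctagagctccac
Il6: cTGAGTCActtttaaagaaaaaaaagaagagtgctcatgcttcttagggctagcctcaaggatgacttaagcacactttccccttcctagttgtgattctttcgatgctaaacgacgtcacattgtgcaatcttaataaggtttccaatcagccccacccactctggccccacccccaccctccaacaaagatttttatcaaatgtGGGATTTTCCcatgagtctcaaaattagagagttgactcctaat
Csf1: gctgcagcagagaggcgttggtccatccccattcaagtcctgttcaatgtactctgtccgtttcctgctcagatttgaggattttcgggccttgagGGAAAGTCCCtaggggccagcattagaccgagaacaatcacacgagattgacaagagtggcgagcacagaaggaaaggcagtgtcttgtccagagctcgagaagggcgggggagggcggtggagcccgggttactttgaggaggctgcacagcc
Cxcl10: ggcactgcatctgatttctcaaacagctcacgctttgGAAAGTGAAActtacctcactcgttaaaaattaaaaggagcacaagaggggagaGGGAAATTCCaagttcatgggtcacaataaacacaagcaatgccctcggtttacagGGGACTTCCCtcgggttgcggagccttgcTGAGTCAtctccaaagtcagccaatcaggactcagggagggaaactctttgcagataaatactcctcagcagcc
Cxcl12: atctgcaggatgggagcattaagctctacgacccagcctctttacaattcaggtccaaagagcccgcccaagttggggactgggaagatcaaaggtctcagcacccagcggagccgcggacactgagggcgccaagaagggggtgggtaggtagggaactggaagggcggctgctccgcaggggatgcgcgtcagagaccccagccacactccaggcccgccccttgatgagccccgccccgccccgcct
The motifs searched, 3 in all, were read on both strands: the kappa B consensus of NF-kappaB, TGANTCA of AP-1, and a pair of TTTC runs with any 2 bases between them, a core of interferon-stimulated response elements. The kappa B consensus was found in Cxcl1, Il6, Csf1 and Cxcl10, 4 of the 6 genes with an entry, against 3.9% of 32841 promoters in the table. In Cxcl1 it matched at 71 bases before the start as GGGAATTTCC, overlapping a match on the other strand. In Il6 it lay 44 bases before the start as GGGATTTTCC, and in Csf1 on the other strand 154 bases before it as GGGACTTTCC. Cxcl10 held the consensus at 159 bases (GGGAAATTCC) and at 103 bases (GGGACTTCCC) before its start. The AP-1 motif was found in Cxcl10, Il6 and Lif, 3 of the 6 genes against 6.75% of promoters (TGANTCA reads as itself on the other strand), and the paired TTTC runs in Cxcl10 alone of the 6, against 2.98%. No match was found in the window of Cxcl12. A match is a run of letters and not a measured binding site, and no binding was measured here.

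Day 4 cells were first compared with MEFs, separately for each genotype. Cxcl1 and Cxcl5, which attract neutrophils, rose in both genotypes, while Cxcl10, Ccl5, Cxcl12 and Csf1 fell in both. The monocyte attractants Ccl2 and Ccl7 and the cytokine Il6 rose in AF10-deleted cells. In fl cells Il6 did not pass the test in the fit without a filter on low counts (edgeR, 1.22, adjusted p = 0.134). The call of Ccl2 and Ccl7 in fl cells depended on the fit, and neither passed in the first fit. In the paired fit Ccl2 (1.56, adjusted p = 1.15e-09) and Ccl7 (1.65, adjusted p = 1.48e-14) rose, where 33.9% of all genes did. That fit removes the difference between the sources separately in each stage, so between stages its p-values leave out how far the sources disagree. With 1 replicate term shared by both stages neither gene passed (edgeR, adjusted p = 0.128 for Ccl2 and 0.102 for Ccl7). Since Ccl5 and Il6 passed the filter on low counts through 1 stage alone, their changes between the stages are given from the fit without a filter and they are left out of the counts that follow. Of the other 8 genes the first fit called 5 in fl cells, 2 higher and 3 lower, where 52.0% of all genes were called (25.7% higher and 26.3% lower). In AF10-deleted cells it called 7 of the 8, 4 higher and 3 lower, where 55.0% of all genes were called (27.5% in each direction). The median change of the 8 genes was 0.45 and 0.46 on the log2 scale, against 0.014 and 0.017 over all genes. It fell between Lif and Cxcl5 in each genotype, and the genes moved in both directions, so it is not a shift of the set. DESeq2 called 6 and 7 of the 8, with Ccl7 added in fl cells. In 4 of the 8 genes both day 4 libraries were above both MEF libraries, as in 39.0% of all genes in fl and 39.7% in AF10-deleted cells, and in 3 they were below, as in 37.9% and 37.7%.

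Ccl2 stood at 21.5 and 5.95 CPM in the replicate 1 and 2 libraries of MEF_fl, at 26.1 and 7.65 in MEF_creAF10, at 34.1 and 33.3 in Day4_fl_DMSO and at 71.0 and 62.3 in Day4_creAF10_DMSO. Both day 4 libraries were above both MEF libraries in each genotype, and the MEF libraries differed widely between the sources. The fitted change was 1.29 ± 0.63 (adjusted p = 0.12) with the fl genotype and 2.01 ± 0.63 (adjusted p = 0.0266) after AF10 deletion. Within replicate 1 the change in fl cells was 0.66 and within replicate 2 it was 2.46. For Ccl7, its neighbour on chromosome 11 and a ligand of several CC receptors, the values were 31.1 and 10.1 CPM in MEF_fl, 30.0 and 9.35 in MEF_creAF10, 51.5 and 59.7 in Day4_fl_DMSO and 79.9 and 79.4 in Day4_creAF10_DMSO. Its pattern over the sources was like that of Ccl2. The change was 1.43 ± 0.58 (adjusted p = 0.0729) with the fl genotype and 2.04 ± 0.59 (adjusted p = 0.02) after AF10 deletion. Without MEF_fl replicate 1 the changes in fl cells were 2.5 for Ccl2 (adjusted p = 0.0284) and 2.46 for Ccl7 (adjusted p = 0.0239). Without MEF_creAF10 replicate 2 those in AF10-deleted cells were 1.35 for Ccl2 (adjusted p = 0.111) and 1.41 for Ccl7 (adjusted p = 0.0848). The calls of both genes in AF10-deleted cells were also lost without either Day4_creAF10_DMSO library, with adjusted p of 0.0811 and 0.0583 for Ccl2 and 0.0563 and 0.0538 for Ccl7. Without a filter on low counts the Ccl2 call was lost too (2.0, adjusted p = 0.0541).

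Ccl5, which attracts T cells and monocytes, had 5.51 and 4.73 CPM in MEF_fl and 5.52 and 3.45 in MEF_creAF10. On day 4 in DMSO it had 0.287 and 0.275 CPM with the fl genotype and 0.462 and 0.335 after AF10 deletion. All day 4 libraries lay far below all MEF libraries, and the mean was 18.2-fold lower in fl cells and 11.3-fold lower in AF10-deleted cells. Fitted without a filter on low counts, the changes were -4.15 ± 0.55 (adjusted p = 0.000115) and -3.48 ± 0.54 (adjusted p = 0.00031). Cxcl10, the interferon-induced ligand, had 22.5 and 12.9 CPM in MEF_fl and 15.9 and 7.05 in MEF_creAF10, against 0.46 and 0.367 in Day4_fl_DMSO and 0.792 and 0.726 in Day4_creAF10_DMSO. These are means 42.8-fold and 15.1-fold lower, with fitted changes of -5.41 ± 0.50 (adjusted p = 2.33e-05) and -3.90 ± 0.47 (adjusted p = 0.000106). On day 4 these means rest on 5 to 13 counts a library.

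Cxcl12, a chemokine that retains stem and progenitor cells through CXCR4, was the most abundant of the 10. It had 974 and 1430 CPM in MEF_fl, 974 and 1370 in MEF_creAF10, 502 and 506 in Day4_fl_DMSO and 574 and 565 in Day4_creAF10_DMSO. All day 4 libraries were below all MEF libraries, and the change was -1.26 ± 0.19 (adjusted p = 0.000465) with the fl genotype and -1.04 ± 0.19 (adjusted p = 0.00123) after AF10 deletion. Csf1, the growth factor of macrophages, moved the same way, from 415 and 514 CPM in MEF_fl to 191 and 243 in Day4_fl_DMSO and from 367 and 510 in MEF_creAF10 to 230 and 298 in Day4_creAF10_DMSO. Its change was -1.10 ± 0.19 (adjusted p = 0.00137) with the fl genotype and -0.73 ± 0.19 (adjusted p = 0.0102) after AF10 deletion. The latter call was lost without MEF_creAF10 replicate 2 (-0.48, adjusted p = 0.0723) and without Day4_creAF10_DMSO replicate 1 (-0.56, adjusted p = 0.081). Cxcl12 and Csf1 fell while the summed fibroblast markers fell from 47400 to 63300 CPM to 20200 to 21800 CPM. Of the 8 markers the first fit called 6 lower in each genotype and 1 higher, Vim, which went from 4350 and 5270 CPM in MEF_fl to 8690 and 8080 in Day4_fl_DMSO. The part of a changed share of fibroblasts in their fall was not tested. Fewer cells of a type and less RNA per cell cannot be told apart in bulk RNA.

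Cxcl1 had 15.1 and 12.4 CPM in MEF_fl, 26.3 and 15.6 in MEF_creAF10, 42.3 and 43.3 in Day4_fl_DMSO and 67.9 and 59.3 in Day4_creAF10_DMSO. The ranges did not overlap between the stages, and the change was 1.64 ± 0.22 (adjusted p = 0.000269) with the fl genotype and 1.61 ± 0.22 (adjusted p = 0.000241) after AF10 deletion. Cxcl5 had 59.3 and 79.9 CPM in MEF_fl and 72.0 and 84.2 in MEF_creAF10, against 158 and 169 in Day4_fl_DMSO and 165 and 160 in Day4_creAF10_DMSO. Day 4 libraries of both genotypes were alike, and the change was 1.23 ± 0.17 (adjusted p = 0.000307) with the fl genotype and 1.05 ± 0.17 (adjusted p = 0.000666) after AF10 deletion. Il6 was scarce throughout, at 0.356 and 0.303 CPM in MEF_fl, 0.539 and 0.138 in MEF_creAF10, 0.919 and 0.642 in Day4_fl_DMSO and 1.91 and 1.62 in Day4_creAF10_DMSO. Fitted without a filter on low counts, its change was 1.22 ± 0.60 (adjusted p = 0.134) with the fl genotype and 2.46 ± 0.57 (adjusted p = 0.00424) after AF10 deletion. Lif differed from the other 9 genes in having MEF libraries on both sides of its day 4 libraries. It had 13.5 and 4.19 CPM in MEF_fl, 13.2 and 4.42 in MEF_creAF10, 6.78 and 7.34 in Day4_fl_DMSO and 7.06 and 8.71 in Day4_creAF10_DMSO. The changes, -0.33 ± 0.58 (adjusted p = 0.662) and -0.14 ± 0.58 (adjusted p = 0.858), did not pass the test. While these genes changed, the sum of 14 macrophage and blood markers went from 6.13 to 15.2 CPM in MEFs to 53.3 to 77.8 CPM on day 4, of which Laptm5 gave 36.1 to 57.5 CPM. Of the 14 markers 11 were tested. The first fit called 5 higher in fl cells, where 25.7% of all genes were, and 3 in AF10-deleted cells, where 27.5% were. It called 0 lower in either genotype, where 26.3% and 27.5% of all genes were. The 3 in AF10-deleted cells are near the share over all genes. Lyz2 had 4.27 and 2.0 CPM in MEF_fl and 14.4 and 14.1 in Day4_fl_DMSO, and Cd68 2.07 and 1.7 against 4.48 and 5.32. Ptprc, Tyrobp, Fcgr3, Aif1, Cd52 and Coro1a were under 1 CPM in both libraries of each group, and Aif1 and Cd52 were at 0 in MEFs. Each of these low markers had a higher mean in Day4_fl_DMSO than in MEF_fl. The mean of Csf1r was lower, at 1.13 against 1.44 CPM. The part of such cells in the day 4 values was not tested.

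**Figure D2:**
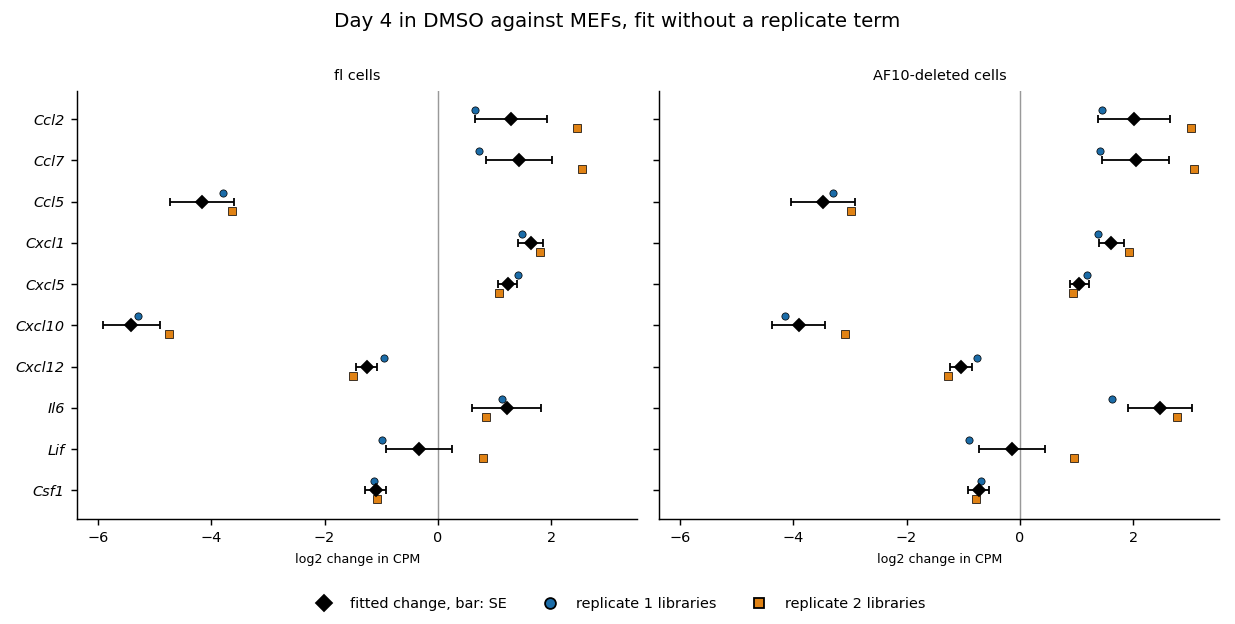
Log2 change of each gene between day 4 in DMSO and MEFs (x axis) in fl cells (left) and AF10-deleted cells (right); diamonds with bars are the first fit and its SE, circles and squares the changes within replicate 1 and replicate 2, computed with a prior count of 2. Ccl5 and Cxcl10 lie far to the left in both panels, and the 2 sources lie on opposite sides of 0 for Lif.

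For Ccl2, Ccl7 and Lif the 2 cell sources differed most in MEFs. Ccl2 was 3.62-fold higher in replicate 1 than in replicate 2 of MEF_fl and 3.42-fold higher in MEF_creAF10. For Ccl7 these ratios were 3.07 and 3.21, and for Lif 3.23 and 2.99. A difference of the same direction and of at least 2-fold in both MEF groups was found for these 3 of the 10 genes and for 4.13% of all genes tested. On day 4 the differences for these 3 genes were small: log2 values of replicate 1 minus replicate 2 were 0.04 and 0.19 in DMSO and -0.40 and -0.02 in SGC0946 for Ccl2. Cxcl12 and Csf1 leaned the other way in MEFs, with replicate 1 at 0.681 and 0.713 of replicate 2 for Cxcl12 and at 0.807 and 0.72 for Csf1. Cxcl12 was nearer to even between the sources on day 4. Replicate 1 was at 0.992 of replicate 2 in Day4_fl_DMSO, 0.933 in Day4_fl_SGC and 1.00 to 1.02 in Day4_creAF10_DMSO and Day4_creAF10_SGC. Csf1 stayed lower in replicate 1 than in replicate 2 in each group.

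**Figure D3:**
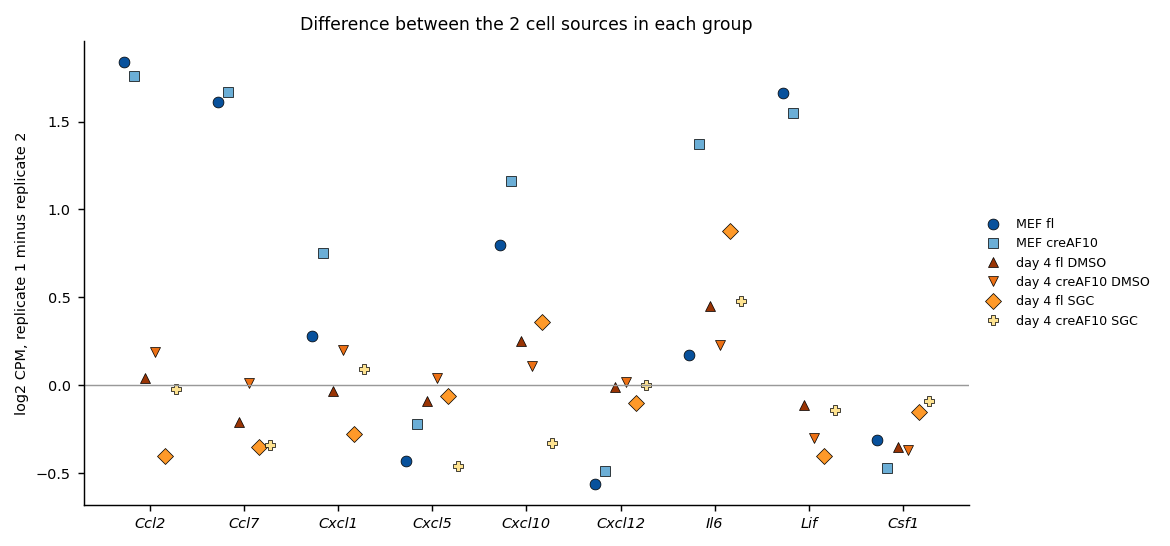
Log2 CPM of replicate 1 minus replicate 2 (y axis) for 9 genes (x axis) in each of the 6 groups (symbols); Ccl5, with 0 counts in 1 library, is left out. MEF symbols of Ccl2, Ccl7 and Lif stand between 1.55 and 1.84, and the day 4 symbols of these genes lie between -0.40 and 0.19.

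With AF10 deletion in MEFs, Cxcl1 rose and Cxcl10 fell in the paired fit, and the other 8 genes did not pass the test. The first fit called 0 of the 10 genes and 0.0% of all genes, and 1 of the 10 had an unadjusted p under 0.05 there. DESeq2 also called 0 of the 10, but it gave Ccl5, Cxcl10 and Il6 no adjusted p, so it was no check on Cxcl10. The paired fit called 2, where 0.962% of all genes were called, 0.122% higher and 0.84% lower. Both MEF_creAF10 libraries had more Cxcl1 (26.3 and 15.6 CPM) than both MEF_fl libraries (15.1 and 12.4), a change of 0.58 ± 0.13 (paired fit, adjusted p = 0.0227). It was the only one of the 10 with both libraries of 1 group above both of the other, which held for 9.77% of all genes. Cxcl10 was lower in both sources, at 0.706 and 0.548 of the fl library with the same number, with a change of -0.67 ± 0.13 (paired fit, adjusted p = 0.00594), but the ranges of the groups overlapped. Neither call held whichever library was left out: without MEF_fl replicate 1 the paired fit called 0 of the 10, and without each of the other 3 MEF libraries it called 1, either Cxcl1 or Cxcl10. Of the signalling genes listed around the 10, the paired fit called 2 in MEFs. The interferon-induced Gbp2 fell from 125 and 118 CPM to 69.8 and 50.8 (-1.03 ± 0.091, paired fit, adjusted p = 1.87e-07) and the RNA sensor Tlr3 from 36.9 and 38.2 to 25.9 and 22.2 CPM (-0.65 ± 0.10, paired fit, adjusted p = 0.000338).

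On day 4 in DMSO, AF10 deletion went with more RNA of 5 of the 10 genes in the paired fit: Ccl2, Ccl7, Cxcl1, Il6 and Csf1. None fell. The means of Ccl2 and Il6 were 1.98-fold and 2.26-fold higher, and those of Ccl7, Cxcl1 and Csf1 1.43-fold, 1.48-fold and 1.22-fold. The first fit called 0 of the 10 and 0.0% of all genes, and 2 of the 10 had an unadjusted p under 0.05 there. DESeq2 called 0 of the 10, but it gave Ccl5, Cxcl10 and Il6 no adjusted p, so it was no check on Il6. The paired fit called 6.74% of all genes, 3.37% higher and 3.37% lower. In 7 of the 10 genes both AF10-deleted libraries were above both fl libraries, as in 20.1% of all genes. The median change of the 10 was 0.50, against 0.003 over all genes.

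Ccl2 stood at 34.1 and 33.3 CPM in fl and at 71.0 and 62.3 CPM in AF10-deleted cells. The libraries with the same number differed 2.08-fold and 1.87-fold, and the change was 0.98 ± 0.10 (paired fit, adjusted p = 1.46e-05). Ccl7 stood at 51.5 and 59.7 CPM against 79.9 and 79.4, a change of 0.52 ± 0.082 (paired fit, adjusted p = 0.000271), and Cxcl1 at 42.3 and 43.3 against 67.9 and 59.3, a change of 0.57 ± 0.10 (paired fit, adjusted p = 0.00161). The groups did not overlap for any of these 3 chemokine genes. Il6 had 16 and 14 counts with the fl genotype and 29 and 29 after AF10 deletion, a change of 1.19 ± 0.34 (paired fit, adjusted p = 0.0333). For Csf1 the values were 191 and 243 CPM against 230 and 298, so that the ranges overlapped, and the change of 0.28 ± 0.076 (paired fit, adjusted p = 0.0231) was alike in the 2 sources at 0.27 and 0.29. Cxcl10 was 0.46 and 0.367 CPM against 0.792 and 0.726 (0.88 ± 0.43, paired fit, adjusted p = 0.238), Cxcl12 502 and 506 against 574 and 565 (0.18 ± 0.069, paired fit, adjusted p = 0.122), and Cxcl5 and Lif had changes of -0.01 ± 0.091 and 0.16 ± 0.14. These 4 genes and Ccl5 did not pass the test. Ccl2 and Ccl7 were called in the paired fit whichever of the 4 libraries was left out. Without Day4_fl_DMSO replicate 2 they were the 2 genes called, and without Day4_fl_DMSO replicate 1 or Day4_creAF10_DMSO replicate 2 Cxcl1 was called with them, which made 3. A sum of 7 epithelial markers was 23.2 to 34.5 CPM in fl cells, where Esrp1 was at 0, and 40.4 to 55.2 CPM in AF10-deleted cells. Its part in these changes was not tested. Macrophage and blood markers summed to 65.8 and 76.2 CPM in fl and 53.3 and 77.2 CPM in AF10-deleted cells, 7 of the 14 being under 1 CPM in each. Of 11 tested, the paired fit called 0 higher and 1 lower, where 3.37% of all genes were called lower. This was Emr1, at 1.72 and 2.2 CPM in fl and 0.396 and 1.34 CPM in AF10-deleted cells. The part of such cells was not tested.

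**Figure D4:**
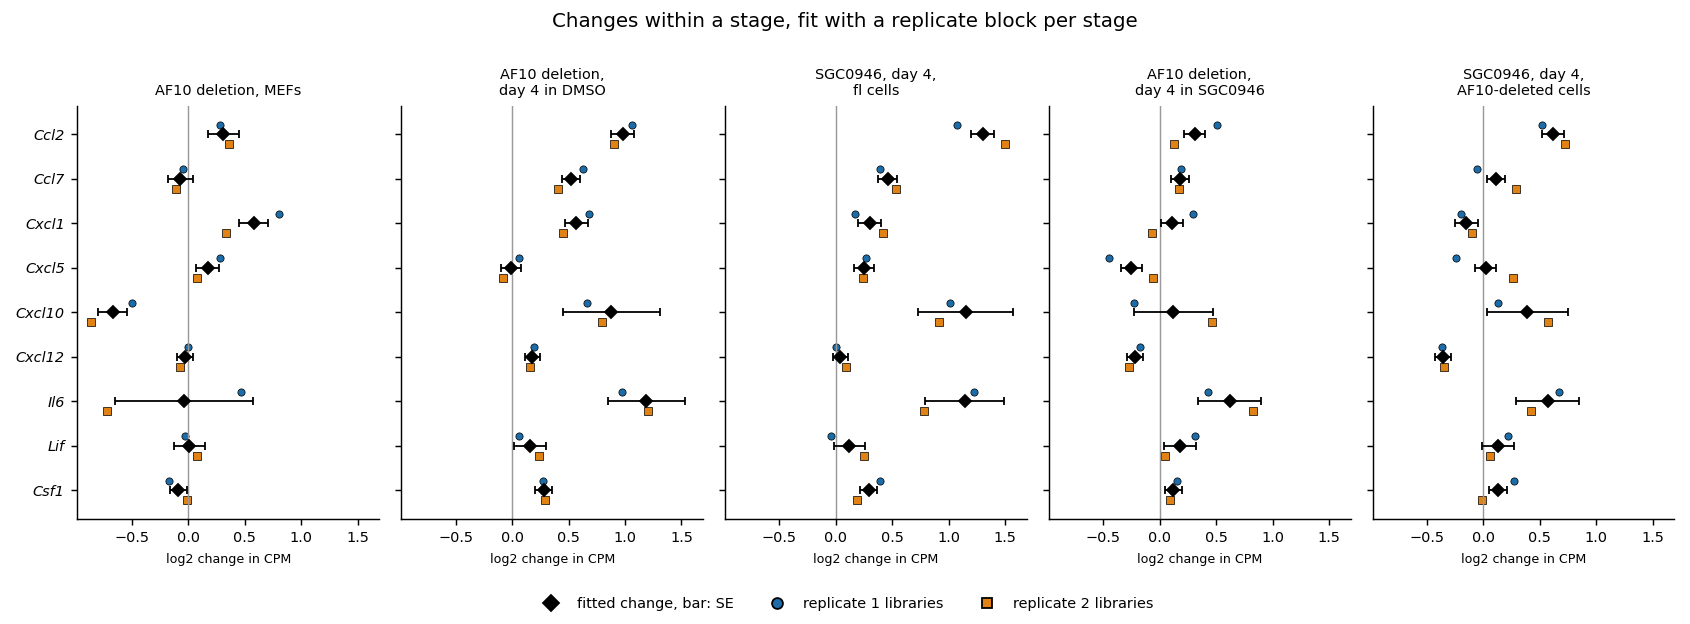
Log2 change of 9 genes (y axis) in 5 comparisons within a stage (panels); diamonds with bars are the paired fit and its SE, circles and squares the changes within replicate 1 and replicate 2, computed with a prior count of 2, and Ccl5, with 0 to 7 counts on day 4, is left out. Ccl2 lies at 0.98 and 1.30 for AF10 deletion in DMSO and SGC0946 in fl cells and at 0.31 and 0.62 where the other perturbation was already present.

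SGC0946 on fl cells was compared with the same Day4_fl_DMSO libraries, so this comparison shares its control with the one before. In the paired fit the inhibitor went with more Ccl2, Ccl7, Cxcl1, Il6 and Csf1, and none of the 10 fell. The first fit called 0 of the 10, where 1.11% of all genes were called (0.883% higher and 0.23% lower), DESeq2 called 0 of the 10, and 1 of the 10 had an unadjusted p under 0.05 in the first fit. The paired fit called 17.7% of all genes, 10.6% higher and 7.1% lower. Both SGC0946 libraries were above both DMSO libraries for 7 of the 10 genes and below for 1, Ccl5, as for 23.4% and 24.2% of all genes. The median change of the 10 was 0.30, against -0.008 over all genes.

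Ccl2 went from 34.1 and 33.3 CPM to 71.5 and 94.2 CPM, which was 2.10-fold and 2.83-fold, with a change of 1.30 ± 0.10 (paired fit, adjusted p = 2.31e-08). It had the largest called change of the 10 genes in this comparison. Ccl7 reached 67.3 and 86.0 CPM (0.46 ± 0.083, paired fit, adjusted p = 0.00019) and Cxcl1 47.8 and 58.0 CPM (0.30 ± 0.10, paired fit, adjusted p = 0.0413). Il6 had 35 and 18 counts against 16 and 14 (1.14 ± 0.35, paired fit, adjusted p = 0.0215), so that replicate 1 moved further than replicate 2. Csf1 reached 250 and 277 CPM (0.29 ± 0.076, paired fit, adjusted p = 0.00755), just above the 243 CPM of the higher DMSO library. Cxcl10 had 16 and 12 counts against 8 and 8 (1.15 ± 0.42, paired fit, adjusted p = 0.056), and Cxcl5 191 and 199 CPM against 158 and 169 (0.25 ± 0.091, paired fit, adjusted p = 0.0658). Cxcl12, at 501 and 537 CPM, and Lif, at 6.60 and 8.76 CPM, had changes of 0.04 ± 0.069 and 0.12 ± 0.14. Ccl5 had 4 and 0 counts against 5 and 6 (-1.07 ± 0.84, paired fit, adjusted p = 0.434), and no change was detectable at this depth. Ccl2 and Ccl7 were called in the paired fit whichever library was left out, and the count of called genes was 2 without Day4_fl_DMSO replicate 1, and 3 without Day4_fl_DMSO replicate 2 or Day4_fl_SGC replicate 1. Epithelial markers summed to 73.9 and 86.8 CPM in SGC0946 against 23.2 and 34.5 CPM in DMSO, and their part in these changes was not tested. Macrophage and blood markers summed to 62.7 and 77.8 CPM in SGC0946. Of 11 tested, the paired fit called 1 higher, Cd14, where 10.6% of all genes were. It called 2 lower, where 7.1% of all genes were: Lyz2, from 14.4 and 14.1 to 7.45 and 6.26 CPM, and Emr1. The part of such cells was not tested either.

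With AF10 already deleted, SGC0946 went with more Ccl2 and less Cxcl12 in the paired fit, and the other 8 genes did not pass the test. Among the 10, 0 were called by the first fit, where 0.00718% of all genes were called, DESeq2 called 0 of the 10, and 0 of the 10 had an unadjusted p under 0.05 in the first fit. The paired fit called 7.75% of all genes, 5.28% higher and 2.47% lower. Ccl2 went from 71.0 and 62.3 CPM to 102 and 103 CPM, a change of 0.62 ± 0.097 (paired fit, adjusted p = 0.000334), the highest level of this gene in any group. Cxcl12 went from 574 and 565 CPM to 446 and 445 CPM, at 0.776 and 0.787 of the DMSO library with the same number, a change of -0.36 ± 0.069 (paired fit, adjusted p = 0.00114). It was the lowest level of Cxcl12 among the 6 groups, with no overlap with the next. These 2 calls remained whichever of the 4 libraries was left out. Ccl7 had 76.6 and 96.8 CPM (0.11 ± 0.080), Cxcl1 58.9 and 55.5 CPM (-0.15 ± 0.099) and Il6 57 and 35 counts (0.57 ± 0.28, paired fit, adjusted p = 0.233). Cxcl5 moved in opposite directions in the 2 sources, at 139 and 192 CPM against 165 and 160. Epithelial markers summed to 74.3 and 89.4 CPM with both perturbations against 40.4 and 55.2 CPM in Day4_creAF10_DMSO, 5 of the 5 tested being called higher in the paired fit, and their part in these changes was not tested.

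AF10 deletion among cells in SGC0946 gave no call among the 10 genes in either fit, where 0.0% and 0.172% of all genes were called. In the first fit 0 of the 10 had an unadjusted p under 0.05, in the paired fit 5 did, and DESeq2 called 0. Ccl2 was 71.5 and 94.2 CPM in fl cells and 102 and 103 CPM in AF10-deleted cells (0.31 ± 0.096, paired fit, adjusted p = 0.325), with both AF10-deleted libraries above both fl libraries. Without Day4_fl_SGC replicate 2 the paired fit called Ccl2, and without Day4_creAF10_SGC replicate 2 it called Cxcl5.

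Cells with both perturbations were also compared with fl cells in DMSO, again the shared control. The paired fit called 6 of the 10 genes, Ccl2, Ccl7, Cxcl1, Cxcl10, Il6 and Csf1, each of them higher, where 21.5% of all genes were called, 12.3% higher and 9.25% lower. None of the 10 was called by the first fit, where 1.82% of all genes were called (1.28% higher and 0.538% lower), nor by DESeq2, and 2 of the 10 had an unadjusted p under 0.05 in the first fit. Ccl2 was 3.04-fold higher (1.6 ± 0.10, paired fit, adjusted p = 7.84e-10), with 2.98-fold and 3.09-fold in the 2 sources. Il6 was 3.41-fold higher (1.76 ± 0.31, paired fit, adjusted p = 0.000134), at 57 and 35 counts against 16 and 14. Cxcl10 had 16 and 18 counts against 8 and 8 (1.27 ± 0.40, paired fit, adjusted p = 0.0223), and stayed at 0.877 and 1.13 CPM, far below its level in MEFs. The changes of Ccl7, Cxcl1 and Csf1 were 0.64, 0.42 and 0.41. Of the epithelial markers 5 of the 5 tested were called higher here too in the paired fit, and their part was likewise not tested. Across the 4 day 4 groups the order of Ccl2 was Day4_fl_DMSO, Day4_creAF10_DMSO, Day4_fl_SGC and Day4_creAF10_SGC, with no overlap between neighbours, although 71.0 and 71.5 CPM were the closest values of Day4_creAF10_DMSO and Day4_fl_SGC. For Ccl7 the 3 perturbed groups lay above Day4_fl_DMSO and each overlapped its neighbour, and for Cxcl1 the highest group was Day4_creAF10_DMSO.

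Whether the 2 perturbations combined was tested as an interaction. In the paired fit it was called for Ccl2 alone of the 10 genes, at -0.68 ± 0.14 (adjusted p = 0.0378), where 0.395% of all genes were called. The first fit called 0 of the 10 and 0.0% of all genes, with 0 of the 10 under an unadjusted p of 0.05. Thus the Ccl2 change with AF10 deletion was 0.98 in DMSO and 0.31 in SGC0946. The paired fit gave no call for Ccl2 in 6 of the 8 fits that left out a library, whereas without Day4_fl_SGC replicate 1 it called Ccl2 and Cxcl1, and without Day4_creAF10_DMSO replicate 2 Ccl2 and Ccl7. For the remaining 9 genes the estimates ranged from -0.76 ± 0.56 for Cxcl10 to 0.77 ± 1.1 for Ccl5, and that of Cxcl12 was -0.40 ± 0.097 (adjusted p = 0.0684). The effect of AF10 deletion was also compared between day 4 in DMSO and MEFs. Ccl7 differed in the paired fit, at 0.60 ± 0.14 (adjusted p = 0.0217), where 1.16% of all genes were called, its change being -0.07 ± 0.11 in MEFs and 0.52 ± 0.082 on day 4. The estimate for Ccl2 was 0.68 ± 0.17 (adjusted p = 0.0688) and that for Cxcl10 1.54 ± 0.45 (adjusted p = 0.0923). By the first fit 0 of the 10 were called there. The Ccl7 call was lost in the paired fit in 7 of the 8 fits that left out a library, and held without Day4_creAF10_DMSO replicate 2, where Ccl2 was called as well. Without Day4_creAF10_DMSO replicate 1 Csf1 was called instead.

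The genes around the 10 were read from lists of ligands, receptors and NF-kappaB signalling. These lists were chosen with earlier results of these data known, so their counts are a description and not an independent test. The counts of these lists stand beside the shares of all genes called in the paired fit, 3.37% higher and 3.37% lower with AF10 deletion in DMSO, 10.6% and 7.1% with SGC0946 in fl cells, and 5.28% and 2.47% with SGC0946 in AF10-deleted cells. Among other chemokines at the same loci, Ccl8, which lies beyond Ccl11 and Ccl12 from Ccl2 and Ccl7 on chromosome 11, rose on day 4 in fl cells from 0.593 and 0.0607 CPM to 3.39 and 1.6 (2.88 ± 0.86, first fit, adjusted p = 0.0202), and in SGC0946 it reached 4.77 and 4.94 CPM (1.01 ± 0.25, paired fit, adjusted p = 0.00488). Ccl11, an eosinophil attractant, stood at 2.24 and 1.65 CPM in Day4_fl_DMSO and 4.51 and 2.04 CPM in Day4_fl_SGC (0.70 ± 0.25, paired fit, adjusted p = 0.0547). Ccl12 was at most 0.395 CPM in each library. Cxcl3, between Cxcl5 and Cxcl1 in the chromosome 5 cluster of CXCR2 ligands, rose from 0.296 and 0.425 CPM in MEF_fl to 1.78 and 2.38 in Day4_fl_DMSO (2.51 ± 0.54, first fit, adjusted p = 0.00332), and Cxcl2 was between 0.0607 and 1.32 CPM throughout. Cxcl15, which lies next to Cxcl3 in that cluster, fell from 32.5 and 39.5 CPM to 5.4 and 5.78 CPM (-2.68 ± 0.18, first fit, adjusted p = 2.69e-06). Among the other CXC, C and CX3C chemokines, 9 of 12 listed genes were tested. By the paired fit, 2 of them rose with AF10 deletion on day 4 in DMSO and 5 with SGC0946 in fl cells, and 0 fell in either. Cxcl16, a transmembrane chemokine, was among them, at 4.65 and 3.85 CPM in Day4_fl_DMSO, 7.92 and 7.37 in Day4_creAF10_DMSO, 10.0 and 9.82 in Day4_fl_SGC and 14 and 12.7 in Day4_creAF10_SGC. Its rise with SGC0946 in fl cells passed the first fit as well (1.22 ± 0.20, adjusted p = 0.0217). Of 6 other CC chemokines tested, 0 were called with AF10 deletion in DMSO and 3 rose with SGC0946 in fl cells: Ccl8, Ccl20 and Ccl9. Of 14 other cytokines tested, 2 rose with AF10 deletion in DMSO, Mif (0.32 ± 0.066, paired fit, adjusted p = 0.00398) and Il34 (0.40 ± 0.093, paired fit, adjusted p = 0.00809). With SGC0946 in fl cells 3 rose and 1 fell. Among these were the alarmin Il33, from 3.33 and 3.48 to 8.37 and 8.43 CPM (1.3 ± 0.16, paired fit, adjusted p = 1.21e-06), and the interleukin 1 receptor antagonist Il1rn, from 589 and 521 to 416 and 455 CPM (-0.35 ± 0.078, paired fit, adjusted p = 0.00182). Il34, the other ligand of the CSF1 receptor, had 5.16 and 4.13 CPM in MEF_fl and 26.8 and 40.3 CPM in Day4_fl_DMSO (2.85 ± 0.25, first fit, adjusted p = 2.24e-05), the opposite direction to Csf1.

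Receptors of the 10 ligands were mostly scarce in these cells. The chemokine receptor genes Ccr1, Ccr2, Ccr3, Cxcr1 and Cxcr3 were at most 0.458 CPM in each library, and Csf1r was between 0.66 and 1.75 CPM. Cxcr2, the receptor of CXCL1 and CXCL5, had 6.34 and 7.22 CPM in MEF_fl and 10.2 and 9.21 in Day4_fl_DMSO (0.51 ± 0.18, first fit, adjusted p = 0.0387). The 2 receptors of CXCL12 moved in opposite directions: Cxcr4 rose from 1.19 and 0.607 CPM to 11.5 and 14.8 CPM (3.87 ± 0.29, first fit, adjusted p = 6.75e-06), and Cxcr7, a scavenger receptor, fell from 79.1 and 85.0 CPM to 31.1 and 27 CPM (-1.50 ± 0.12, first fit, adjusted p = 1.1e-05). Cxcr4 was lower in SGC0946, at 7.58 and 8.83 CPM in fl cells (-0.68 ± 0.15, paired fit, adjusted p = 0.00126), and Cxcr7 was higher (0.38 ± 0.082, paired fit, adjusted p = 0.00153). Il6ra, which binds IL6, rose on day 4 from 9.37 and 4.61 to 28.8 and 32.8 CPM (2.14 ± 0.38, first fit, adjusted p = 0.00181), and Il6st, which encodes gp130, fell from 801 and 677 to 498 and 480 CPM (-0.60 ± 0.12, first fit, adjusted p = 0.00249). Lifr, the LIF receptor, rose with AF10 deletion on day 4 in DMSO from 82.5 and 58.5 to 105 and 80.9 CPM (0.40 ± 0.080, paired fit, adjusted p = 0.00285) and with SGC0946 in fl cells to 110 and 94.5 CPM (0.55 ± 0.080, paired fit, adjusted p = 1.19e-05). In all, 9 of the 16 receptor genes were tested. By the paired fit, AF10 deletion in DMSO went with 1 higher, Lifr, and 1 lower, Il6st. The latter fell from 498 and 480 CPM in Day4_fl_DMSO to 436 and 377 CPM in Day4_creAF10_DMSO. SGC0946 in fl cells went with 2 higher and 2 lower in the same fit.

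Of 17 NF-kappaB target genes tested besides the 10, 7 rose and 0 fell in the paired fit with AF10 deletion on day 4 in DMSO (3.37% of all genes were called higher), with a median change of 0.49. With SGC0946 in fl cells 13 rose and 1 fell (10.6% higher over all genes), with a median of 0.71, and with SGC0946 in AF10-deleted cells 6 rose and 1 fell (5.28% higher over all genes), with a median of 0.34. By the first fit 0, 2 and 0 of them were called. This list too was chosen with earlier results of these data known, so an excess over all genes is no independent test. AF10 deletion in DMSO and SGC0946 in fl cells also share the Day4_fl_DMSO libraries. The matrix metalloproteinase gene Mmp3 went from 219 and 239 CPM in Day4_fl_DMSO to 331 and 384 in Day4_creAF10_DMSO and 409 and 467 in Day4_fl_SGC. The leukocyte adhesion gene Icam1 went from 26.7 and 25.0 CPM to 40.1 and 37.6 and to 44.9 and 39.7 CPM in the same groups. Ptx3, a secreted pattern recognition protein, went from 85.8 and 87.8 CPM to 127 and 117 and to 156 and 151 CPM, and its rise with SGC0946 passed the first fit (0.82 ± 0.076, adjusted p = 0.006), as did that of the iron-binding lipocalin gene Lcn2 (1.57 ± 0.24, adjusted p = 0.0196). The 1 gene of the list that fell in each SGC0946 comparison was Vcam1, an adhesion molecule (-0.37 ± 0.072 in fl and -0.35 ± 0.072 in AF10-deleted cells, paired fit, adjusted p = 0.000505 and 0.00232). Ptx3, Lcn2, Mmp3 and Icam1 were the 4 genes of the list called for the interaction in the paired fit, with estimates of -0.73 ± 0.10, -1.10 ± 0.20, -0.58 ± 0.11 and -0.59 ± 0.12. For this interaction of AF10 deletion and SGC0946 the paired fit called 0.323% of all genes lower. The first fit called 0 of the list and 0.0% of all genes.

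Of the 21 NF-kappaB subunit and regulator genes tested, 4 rose with AF10 deletion in DMSO and 7 with SGC0946 in fl cells in the paired fit, and 0 fell in either. Nfkbia, the inhibitor that NF-kappaB itself induces, had 71.7 and 66.7 CPM in Day4_fl_DMSO, 91.6 and 102 in Day4_creAF10_DMSO, 109 and 116 in Day4_fl_SGC and 133 and 134 in Day4_creAF10_SGC. The 4 groups did not overlap, and the change with SGC0946 in fl cells passed the first fit (0.70 ± 0.099, adjusted p = 0.0194). Among 21 upstream receptors and adaptors, 1 rose with AF10 deletion in DMSO, the interleukin 1 receptor gene Il1r1 (0.35 ± 0.073, paired fit, adjusted p = 0.00422), and 4 rose with SGC0946 in fl cells. Il1r1 had 49.2 and 54.2 CPM in Day4_fl_DMSO and 73.6 and 82.3 CPM in Day4_fl_SGC (0.59 ± 0.12, first fit, adjusted p = 0.0439). Of 13 genes of LIF and IL6 signalling, 3 rose with AF10 deletion in DMSO (Junb, Bcl6 and Socs3) and 5 with SGC0946 in fl cells. Socs3, the feedback inhibitor of gp130 signalling, had 188 and 185 CPM in Day4_fl_DMSO, 234 and 213 in Day4_creAF10_DMSO (0.26 ± 0.073, paired fit, adjusted p = 0.0306) and 273 and 248 in Day4_fl_SGC (0.48 ± 0.072, paired fit, adjusted p = 2.12e-05). Of 9 genes for decay factors of cytokine mRNA, 0 were called with AF10 deletion and 1 rose with SGC0946 in fl cells, Zc3h12a. For the upstream receptors with AF10 deletion and the decay factors with SGC0946, 1 call is near the share over all genes. With AF10 deletion in MEFs, 0 of 21 NF-kappaB subunits and regulators were called, and 1 of the 17 target genes fell, Gbp2.

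**Figure D5:**
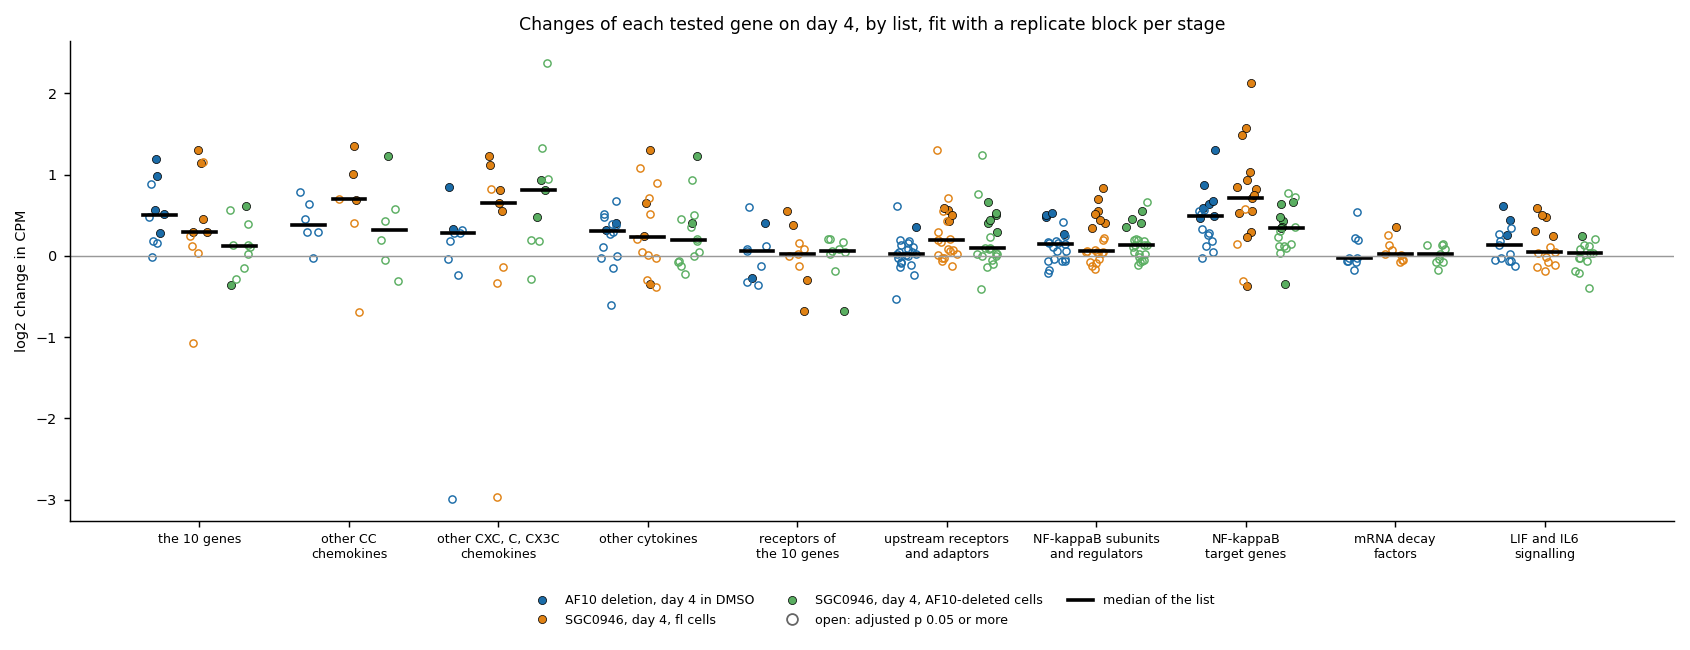
Log2 change (y axis) in the paired fit of each tested gene, by list (x axis), for AF10 deletion on day 4 in DMSO (blue), SGC0946 in fl cells (orange) and SGC0946 in AF10-deleted cells (green); filled points have an adjusted p under 0.05 and black bars are medians. NF-kappaB target genes have medians of 0.49, 0.71 and 0.34. The medians are 0.28, 0.65 and 0.81 for other CXC, C and CX3C chemokines and 0.38, 0.70 and 0.31 for other CC chemokines. Those of the receptors of the 10 genes, mRNA decay factors and LIF and IL6 signalling genes lie near 0.

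Genes with the pattern most like that of Ccl2, Cxcl5, Cxcl10 and Cxcl12 were found by Pearson's r of log2 CPM, as a description across libraries that share stage and cell source. Over the 12 libraries those nearest to Ccl2 were Cldn1 (r = 0.986), Gcnt2 (0.978), Gngt2 (0.978), Irak3 (0.973) and Apcdd1 (0.969). Over the 8 day 4 libraries with the replicate means subtracted they were Chfr (0.995), Phf7 (0.992), F3 (0.989), Gm5797 (0.987) and Ier3 (0.987). No gene stood in both sets. Nearest to Cxcl10 over the 12 libraries were Jakmip2 (0.992), H2-K1 (0.991), Trib3 (0.991), Dock10 (0.989) and Gbp2 (0.989). Nearest to Cxcl12 were Gm5595, Twist1 and Dkk2 (each 0.99), Comp (0.988) and Cyhr1 (0.987), and nearest to Cxcl5 were Slc45a3 (0.985), Prom1 (0.982), Shroom3, Cmah and 4922501L14Rik (each 0.98).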

How the data were processed

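Polyadenylated RNA of 12 mouse libraries was sequenced from TruSeq V2 libraries, which do not mark strand. The authors deposited RSEM expected counts and TPM per gene, per the file headers. RSEM, Bowtie and the mm9 build are named in the submitters' processing notes, and versions and annotation are not given in the sources used here. Expected counts were rounded and tested with edgeR 4.0.16 (quasi-likelihood, TMM, R 4.3.3), keeping 13936 genes that passed filterByExpr (minimum count 10). DESeq2 1.42.0 was an alternative. The first fit had a term per group. In the paired fit the replicate number was also a term within each stage. The pairing comes from the labels' numbers and was checked: deviations from the group means correlated at 0.286 to 0.737 over 15 pairs of groups. Group and within-replicate values are TMM-scaled CPM, with a prior count of 2 on the log2 scale. The scripts were tested on simulated data. All 10 genes are named. For pathway lists, up to 3 called genes with the lowest p per comparison, locus neighbours and receptors could be named. The 10 genes and the lists were chosen with earlier results of these data known. Other settings tried were another scaling, no scaling, no filter, a replicate block over all libraries, and leaving out each library. Leaving out libraries in the paired fit was added after seeing the data. Promoters came from RefSeq (GRCm38.p6), not the build of the counts.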

Additional observations from a re-analysis of the deposited data

Results flagged for a closer look

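The effect of AF10 deletion differed between treatments for Ccl2 and between stages for Ccl7, by the test of the difference itself in the paired fit. For Ccl2 the change with AF10 deletion on day 4 was 0.98 on the log2 scale in DMSO and 0.31 in SGC0946, a difference of -0.68 ± 0.14 (edgeR, adjusted p = 0.0378). For Ccl7 the change with AF10 deletion was -0.07 in MEFs and 0.52 on day 4 in DMSO, a difference of 0.60 ± 0.14 (edgeR, adjusted p = 0.0217). In the first fit the adjusted p of both was 1.0. Neither difference passed with 1 replicate block over all libraries, and neither call of the paired fit held whichever library was left out.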

How the results depend on the processing

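With 2 libraries a group, calls within a stage rested on the pairing. With the replicate block per stage the number of the 10 genes called went from 0 to 2 for AF10 deletion in MEFs, 5 for AF10 deletion on day 4 in DMSO, 5 for SGC0946 in fl cells, 2 for SGC0946 in AF10-deleted cells, 6 for both perturbations together, and 1 for each interaction. For day 4 against MEFs in fl cells the block per stage added Ccl2 and Ccl7 to the calls. With 1 replicate block over all libraries these 2 genes did not pass (edgeR, adjusted p = 0.128 and 0.102). Il6 is left out there, since it passed the filter on low counts through the day 4 libraries alone. With 1 replicate block over all libraries the count was 2 for both perturbations together. It was 0 for each other comparison within a stage and each interaction, so that the calls of the block per stage were lost there. The block per stage left the Lif change with AF10 deletion in MEFs at 0.01 and that of day 4 against MEFs in AF10-deleted cells at 0.05, the opposite sign to the first fit, as did no scaling for the latter (0.03). The block over all libraries turned the Lif interaction of AF10 deletion and SGC0946 to -0.01. The cause of these shifts was not tested. The block turned no other direction. Of 100 values a setting, DESeq2 left 99, another scaling 100, no scaling 98 and no filter 99 with the direction and side of the threshold of the first fit. DESeq2 gave no adjusted p for Ccl5, Cxcl10 and Il6 with AF10 deletion in MEFs and on day 4 in DMSO, which stand as not called. The value lost without a filter was that of Ccl2 for day 4 against MEFs in AF10-deleted cells (2.0, adjusted p = 0.0541).

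Leaving out a library in the paired fit gave counts of 0 to 1 for AF10 deletion in MEFs, 2 to 4 on day 4 in DMSO (3 without Day4_fl_DMSO replicate 1 or Day4_creAF10_DMSO replicate 2), 0 to 1 in SGC0946, 2 to 4 for SGC0946 in fl cells (3 without Day4_fl_DMSO replicate 2 or Day4_fl_SGC replicate 1), and 0 to 2 for each interaction. In the first fit, leaving out a library changed the sign of 52 of 480 values. For AF10 deletion in MEFs the ranges were -0.85 to 1.47 for Ccl2, -1.14 to 0.93 for Ccl7, -0.57 to 0.11 for Ccl5, -0.03 to 0.40 for Cxcl5, -0.31 to 0.26 for Cxcl12, -1.21 to 0.70 for Il6, -1.0 to 1.05 for Lif and -0.34 to 0.14 for Csf1. On day 4 in DMSO they were -0.06 to 0.03 for Cxcl5 and -0.01 to 0.30 for Lif. In SGC0946 they were -0.0 to 0.36 for Ccl7, -0.02 to 0.26 for Cxcl1, -0.07 to 0.34 for Cxcl10 and -0.02 to 0.39 for Lif. For SGC0946 in fl cells they were -0.01 to 0.09 for Cxcl12 and -0.10 to 0.31 for Lif. For SGC0946 in AF10-deleted cells they were -0.06 to 0.28 for Ccl7, -0.83 to 0.15 for Ccl5, -0.22 to 0.24 for Cxcl5, -0.01 to 0.29 for Lif and -0.06 to 0.32 for Csf1. For both perturbations they were -0.35 to 0.64 for Ccl5 and -0.24 to 0.22 for Cxcl5. For day 4 against MEFs Lif ranged from -0.94 to 0.75 in fl and from -0.74 to 0.84 in AF10-deleted cells. For the interaction of AF10 deletion and SGC0946 the ranges were -0.18 to 5.05 for Ccl5, -0.18 to 0.23 for Lif and -0.35 to 0.04 for Csf1. For that of AF10 deletion and stage they were -0.49 to 1.83 for Ccl2, -0.41 to 1.66 for Ccl7, -0.37 to 0.38 for Cxcl1, -0.41 to 0.02 for Cxcl5, -0.09 to 0.48 for Cxcl12 and -0.89 to 1.16 for Lif. Depth limits Ccl5 and Cxcl10 on day 4 and Il6 in all groups.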
